A study of Mus musculus with 8 samples.

Results

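Expression of 10 genes of antigen presentation was followed in the epidermis of imiquimod-treated mice. They were taken by symbol from the 23171 gene rows of the deposited count table, and all 10 were present and passed the filter on low counts. They comprise 7 genes of the major histocompatibility complex (MHC) class II pathway (H2-Aa, H2-Ab1, H2-Eb1, H2-DMa, H2-DMb1, Cd74 and Ciita), the costimulatory gene Cd86, the Langerhans cell gene Cd207 and the lipid-presenting gene Cd1d1. The cKO group held 4 libraries from mice whose Hnrnpu gene was knocked out specifically in the epidermis, and the WT group held 4 libraries from control mice. Every mouse in both groups had received imiquimod, a Toll-like receptor agonist that causes psoriasis-like inflammation of mouse skin, and the labels put all libraries in 1 batch. The sources used here do not give the Cre driver, strain, MHC haplotype or age of the mice. The series' design text counts 4 mice per genotype, so each library is read as 1 mouse.

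MHC class II molecules are pairs of an alpha and a beta chain that show peptides from endocytosed proteins to CD4+ T cells. The invariant chain, encoded by Cd74, occupies the new molecule until H2-DM, a dimer of the H2-DMa and H2-DMb1 products, exchanges its remnant for a peptide. Ciita encodes the coactivator that switches all these genes on by docking to factors bound at conserved X and Y boxes in their promoters. In the epidermis the main class II-bearing cell is the Langerhans cell, a resident phagocyte marked by langerin (Cd207), and inflamed keratinocytes can also express class II. CD1d, the product of Cd1d1, is a class I-like molecule that shows lipids to natural killer T (NKT) cells and is made by keratinocytes as well as by leukocytes.

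X and Y boxes were read in the promoters of 3 of the 7 class II genes whose levels are compared here. RefSeq promoter sequences (GRCm38.p6) were matched for 5 of the 10 genes, H2-Aa, H2-Eb1, H2-DMa, H2-DMb1 and Cd207, and were searched on both strands for TGATTGG (Y box, the reverse of a CCAAT element), AACNGATG (from the X1 part of the X box) and TGACGTCA (X2 part, a cyclic AMP response element). The motif letters were chosen after these promoters had been seen and after a longer and a shorter spelling of X1 had been tried, so the matches are a description only. In the following lines capitals mark the X1 or X2 match on the left and the Y match on the right.
H2-DMb1: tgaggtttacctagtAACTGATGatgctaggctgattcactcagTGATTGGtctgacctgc
H2-Eb1: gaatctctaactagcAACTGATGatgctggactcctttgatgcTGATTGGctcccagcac
H2-Aa: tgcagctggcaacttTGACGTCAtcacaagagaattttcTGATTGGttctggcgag
The H2-DMb1 stretch lies on the plus strand at chr17:34153084-34153144, the H2-Eb1 stretch on the plus strand at chr17:34305763-34305822 and the H2-Aa stretch on the minus strand at chr17:34287857-34287912. The X match began 92, 89 and 74 bases and the Y match 63, 61 and 50 bases before the RefSeq start of H2-DMb1, H2-Eb1 and H2-Aa, in that order. The matches were separated by 21 bases in H2-DMb1, 20 in H2-Eb1 and 16 in H2-Aa. Over all 32851 RefSeq promoters of the same length (250 bases before to 50 after the start), TGATTGG occurred in 7.82%, AACNGATG in 2.32%, TGACGTCA in 1.79%, and TGATTGG together with either X motif in 0.332%. None of the 3 motifs occurred in the Cd207 promoter or at either H2-DMa start.

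Library totals ran from 37158621 to 38865722 counts. Levels are given as CPM, counts scaled to library size with factors from the trimmed mean of M values (TMM), and fold changes are cKO over WT from the edgeR quasi-likelihood test, with p adjusted over the 14004 tested genes and a gene called below 0.05. Hnrnpu stood at 43.4%, 85.3%, 81.1% and 71.3% of the WT mean in cKO replicates 1 to 4, all below the WT range of 97.0% to 104%. Its log2 fold change of -0.51 ± 0.19 (SE) was not called (adjusted p = 0.191), and it was -0.33 without cKO replicate 1. The labels name keratinocytes as the cell type. The keratinocyte marker genes Krt1, Krt5, Krt10, Krt14, Trp63, Dsg3, Dsp and Itgb4 summed to 61567 to 86857 CPM in cKO and 70029 to 91161 CPM in WT, and none of the 8 was called, with Krt10 at 0.02 ± 0.22 (edgeR adjusted p = 0.98) and Krt1 at -0.22 ± 0.18 (adjusted p = 0.558). Of the 8, 7 had negative log2 fold changes and the median was -0.20, and Krt14, named after its value was seen, was at -0.58 ± 0.24 (adjusted p = 0.246).

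Of the 10 genes, 1 fell in cKO epidermis, Cd1d1, and none rose. Among all tested genes 1.32% were called, 0.671% higher and 0.65% lower in cKO. The other 9 genes had positive fold changes that did not pass, and the median log2 fold change of the 10 was 0.40, beside 0.01 over all tested genes. In CPM, all 7 class II genes stood above every WT library in cKO replicates 1, 2 and 3 and below every WT library in cKO replicate 4. This pattern was picked after the values were seen, and 0.557% of tested genes showed it. In the deposited FPKM values it did not hold for Ciita, with cKO replicate 4 (0.195) above WT replicate 4 (0.179). These libraries are whole-epidermis bulk RNA, in which fewer cells of a type and less RNA per cell cannot be told apart.

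**Figure D1:**
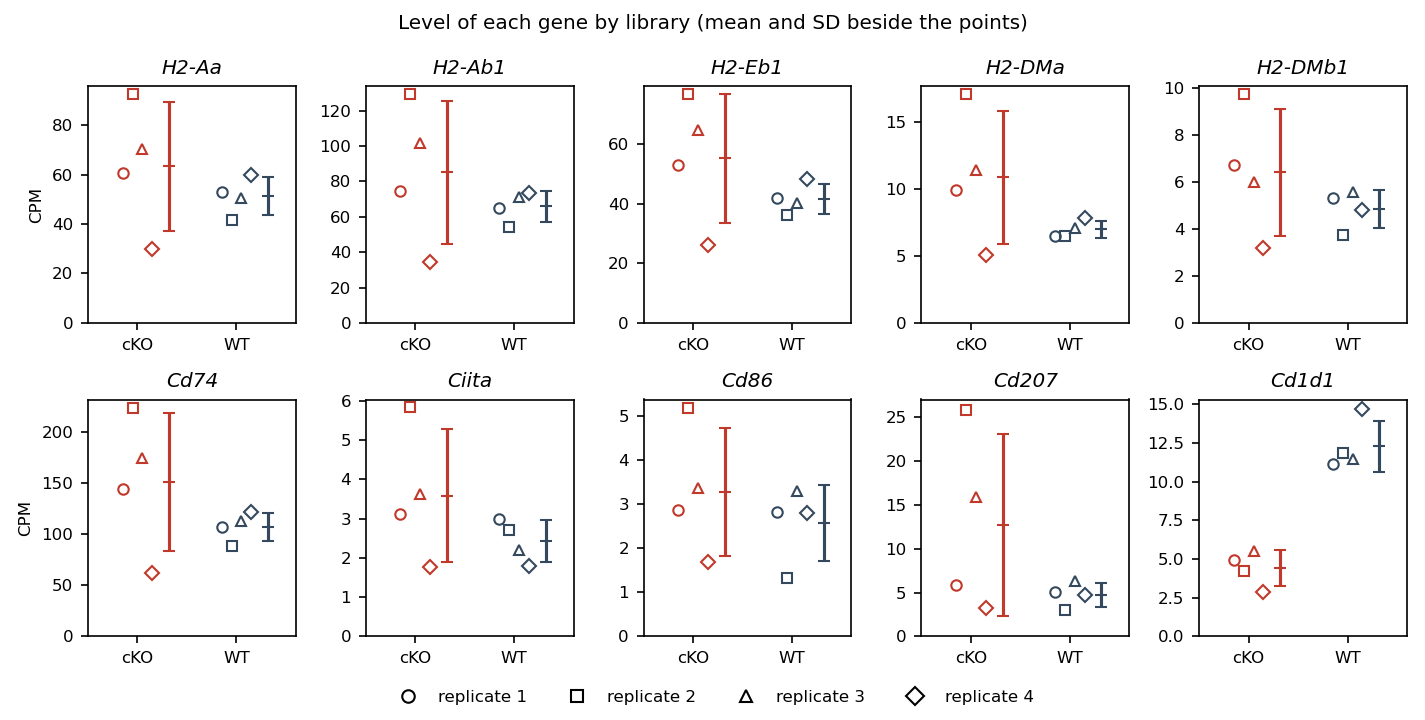
CPM (y axis) of each of the 10 genes in the 4 cKO libraries (left) and the 4 WT libraries (right), with a symbol for each replicate number and the mean with SD beside the points. In the 7 class II panels 3 cKO libraries lie above and 1 below the WT points, while for Cd1d1 all 4 cKO points lie below the WT points.

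Cd1d1 gave the one clear difference between the genotypes. Its level was 4.97, 4.26, 5.55 and 2.90 CPM in cKO replicates 1 to 4, against 11.1, 11.8, 11.4 and 14.7 CPM in WT replicates 1 to 4. Every cKO library lay below every WT library, a separation that 11.1% of tested genes showed in either direction and 5.82% showed as lower in cKO. Cd1d1 averaged 4.42 ± 1.14 CPM in cKO libraries, against 12.3 ± 1.65 CPM in WT libraries (SD, n = 4 per genotype), and rested on 122 to 550 counts. Cd1d1 was 2.78-fold lower in cKO (log2 fold change -1.47 ± 0.21 SE, 95% confidence interval -1.95 to -0.999, edgeR adjusted p = 0.0262). An exact two-sided permutation of the genotypes gave p = 0.0286, which is the lowest value this design can reach.

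The size of the Cd1d1 difference varied little with single libraries, while its call did not hold without some of them. Its log2 fold change stayed between -1.59 and -1.31 when any 1 library was left out. The edgeR adjusted p passed above 0.05 without cKO replicate 1 (0.0537) and without WT replicate 1 (0.0569), 2 (0.0652), 3 (0.079) or 4 (0.0866). DESeq2 gave an adjusted p of 6.71e-09, where it called 8.1% of the genes to which it gave an adjusted p. Reads shared with the neighbouring copy Cd1d2, a transcribed pseudogene in RefSeq that was not analysed here, could not be told apart from Cd1d1 reads.

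Of 8 other tested genes of CD1d lipid presentation, 1 rose and none fell, with a median log2 fold change of 0.28. The shares over all tested genes were 0.671% called higher and 0.65% called lower. B2m, the light chain that CD1d shares with class I molecules, stood at 435, 582, 619 and 399.7 CPM in cKO replicates 1 to 4 and at 394, 309, 401 and 369 CPM in WT replicates 1 to 4 (log2 fold change 0.47 ± 0.16 SE, edgeR adjusted p = 0.166). Psap, the precursor of the saposins that load lipids, was at -0.18 ± 0.15 (adjusted p = 0.55). Cd1d1 per B2m came to between 0.726% and 1.14% of the B2m CPM in cKO and between 2.82% and 3.99% in WT.

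The gene of that list that rose was Zbtb16, a transcription factor that directs NKT cell development and is also made outside lymphocytes. It had 14.4, 7.42, 21.6 and 17.4 CPM in cKO replicates 1 to 4, against 5.22, 4.17, 2.53 and 2.44 CPM in WT replicates 1 to 4. All cKO values lay above all WT values, where 11.1% of tested genes showed no overlap in either direction. The log2 fold change was 2.08 ± 0.36 (SE, edgeR adjusted p = 0.0337). The call was lost without cKO replicate 1 (adjusted p = 0.067) or 3 (0.0667), and without WT replicate 1 (0.0595), 2 (0.0821), 3 (0.0949) or 4 (0.108). It was also lost with limma-voom (0.054), on log2(FPKM + 1) with (0.0598) and without (0.137) a filter on low values, and with the replicate number as a block (0.0679).

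The alpha chain gene H2-Aa had 60.7, 92.7, 70.1 and 29.7 CPM in cKO replicates 1 to 4, against 52.8, 41.7, 50.6 and 60.0 CPM in WT replicates 1 to 4. Its partner H2-Ab1, the beta chain of the same I-A molecule, had 74.8, 129, 102 and 34.7 CPM in cKO and 65.0, 54.0, 71.2 and 73.5 CPM in WT. H2-Eb1, the beta chain of I-E, had 52.8, 76.9, 64.7 and 26.2 CPM in cKO and 41.7, 36.3, 40.0 and 48.1 CPM in WT. In all 3 chain genes cKO replicate 2 was the highest library and cKO replicate 4 the lowest, with the WT libraries in a narrow band between them. H2-Aa averaged 63.3 ± 26.1 CPM in cKO libraries, against 51.3 ± 7.55 CPM in WT libraries (SD, n = 4 per genotype), a log2 fold change of 0.30 ± 0.29 (SE, edgeR adjusted p = 0.617). H2-Ab1 averaged 85.2 ± 40.3 CPM in cKO libraries, against 65.9 ± 8.72 CPM in WT libraries (0.37 ± 0.33, adjusted p = 0.59). H2-Eb1 averaged 55.1 ± 21.6 CPM in cKO libraries, against 41.5 ± 4.96 CPM in WT libraries (0.41 ± 0.28, adjusted p = 0.466).

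The ratios between chain genes varied less than their levels. H2-Aa per H2-Ab1 was 0.689 to 0.857 in cKO and 0.710 to 0.816 in WT, as a ratio of CPM. H2-Eb1 per H2-Ab1 was 0.595 to 0.757 in cKO and 0.562 to 0.671 in WT. The alpha chain of I-E, encoded by H2-Ea, was not analysed here. Class II chain genes are highly polymorphic between mouse strains, and how well reads of these mice match the authors' reference is not known here.

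Cd74, the invariant chain gene and the most abundant of the 10, followed the chain genes. It stood at 144, 224, 174 and 62.1 CPM in cKO replicates 1 to 4, against 107, 88.5, 113 and 121 CPM in WT replicates 1 to 4. Cd74 averaged 151 ± 67.7 CPM in cKO libraries, against 107 ± 13.8 CPM in WT libraries (SD, n = 4 per genotype), a difference that was not called (0.49 ± 0.32 SE on the log2 scale, edgeR adjusted p = 0.443). The confidence interval of the Cd74 difference, -0.22 to 1.21 on the log2 scale, spans levels from 0.857 to 2.31 times that of WT.

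H2-DMa, the alpha chain of the peptide exchanger, had 9.91, 17.1, 11.5 and 5.07 CPM in cKO replicates 1 to 4, against 6.50, 6.50, 7.11 and 7.84 CPM in WT replicates 1 to 4. H2-DMb1, its beta chain, had 6.71, 9.75, 5.98 and 3.19 CPM in cKO and 5.30, 3.76, 5.55 and 4.79 CPM in WT. Both exchanger genes repeated the split of the cKO libraries around the WT band. The log2 fold change was 0.64 ± 0.31 (SE, edgeR adjusted p = 0.307) for H2-DMa, the largest among the 7 class II genes, and 0.40 ± 0.31 (adjusted p = 0.524) for H2-DMb1. Reads of H2-DMb1 and its close copy H2-DMb2 may be split uncertainly, and H2-DMb2 was at 1.01 ± 0.59 (adjusted p = 0.395). H2-Ob, a chain of the H2-DM inhibitor H2-DO, was at -0.34 ± 0.67 (adjusted p = 0.837). Exons of H2-DMa overlap Brd2 on the opposite strand in the GENCODE M21 annotation, and those of Ciita overlap Dexi, so reads there could not be assigned with certainty.

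Ciita, the class II coactivator, had 3.12, 5.83, 3.62 and 1.76 CPM in cKO replicates 1 to 4, against 2.99, 2.71, 2.19 and 1.79 CPM in WT replicates 1 to 4. Its counts were low, between 67 and 208 per library, and cKO replicate 4 and WT replicate 4 were nearly level. The log2 fold change was 0.56 ± 0.35 (SE, edgeR adjusted p = 0.428). Ciita CPM came to between 2.08% and 2.83% of Cd74 CPM in cKO and between 1.48% and 3.06% in WT.

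Cd86, a costimulatory ligand that antigen-presenting cells raise on activation, did not show the same split. It had 2.86, 5.18, 3.38 and 1.69 CPM in cKO replicates 1 to 4, against 2.83, 1.33, 3.30 and 2.81 CPM in WT replicates 1 to 4. The lowest value belonged to WT replicate 2, and the genotypes overlapped. The log2 fold change of Cd86 was 0.35 ± 0.38 (SE, edgeR adjusted p = 0.672) and was 0.06 without cKO replicate 2 and 0.14 without WT replicate 2.

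Cd207 varied more between cKO libraries than any of the other 9 genes. Langerin, its product, is the lectin that builds the Birbeck granules of Langerhans cells. Cd207 had 5.88, 25.9, 15.9 and 3.21 CPM in cKO replicates 1 to 4, against 5.06, 2.99, 6.28 and 4.68 CPM in WT replicates 1 to 4. Replicates 2 and 3 of cKO were above the WT range, at 545% and 335% of the WT mean, and replicates 1 and 4 lay within it, at 124% and 67.6%. Cd207 averaged 12.7 ± 10.3 CPM in cKO libraries, against 4.75 ± 1.36 CPM in WT libraries (SD, n = 4 per genotype), and the highest cKO library exceeded the lowest 8.06-fold, against 2.10-fold in WT. The log2 fold change was 1.42 ± 0.57 (SE, 95% confidence interval 0.13 to 2.71). Cd207 and Cd1d1 were the 2 of the 10 genes with an unadjusted edgeR p below 0.05, which 18.6% of all tested genes had. The unadjusted p of Cd207 was 0.0344, and it did not pass over all genes (edgeR adjusted p = 0.227). Its exact two-sided permutation test gave 0.229, and leaving out cKO replicate 2 brought the fold change down to 0.82 on the log2 scale. Cd207 per Cd74 set the same libraries apart, at 11.6% and 9.14% of the Cd74 CPM in cKO replicates 2 and 3 and 4.09% and 5.17% in cKO replicates 1 and 4, with WT libraries between 3.37% and 5.58%.

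**Figure D2:**
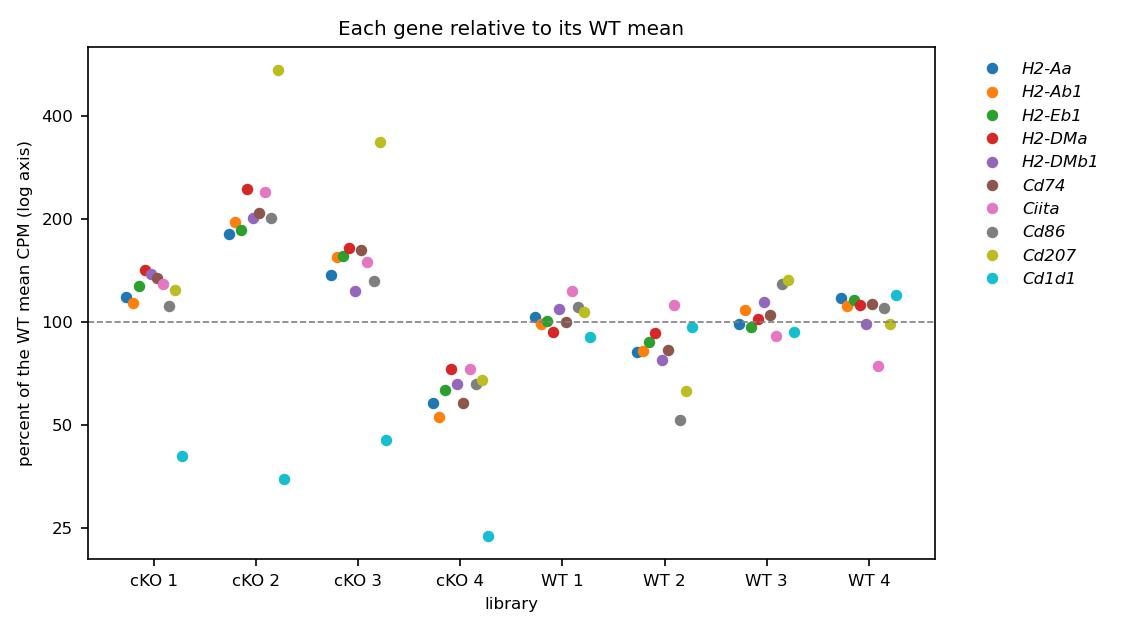
CPM of each gene as a percent of its own WT mean (log axis, dashed line at 100) in the 4 cKO libraries (left) and the 4 WT libraries (right), with a colour for each gene. In cKO replicate 2 the class II genes lie between 181% and 245% and Cd207 at 545%, in cKO replicate 4 the class II genes lie between 52.6% and 72.7%, and Cd1d1 lies at 23.6% to 45.2% in the cKO libraries.

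The 9 genes other than Cd1d1 varied together across the cKO libraries, but not all of them did across the WT libraries. In WT replicate 4 Ciita was at its lowest among WT libraries (74.1% of its WT mean) and H2-Aa at its highest (117%). As a median over the 7 class II genes, the level was 129%, 201%, 155% and 63.2% of the WT mean in cKO replicates 1 to 4, against 100.4%, 82.6%, 102% and 112% in WT replicates 1 to 4. The order of cKO replicates 2, 3, 1 and 4 from high to low was shared by 8 of the 10 genes and by 10.2% of all tested genes. The exceptions were H2-DMb1 and Cd1d1. In CPM, replicates 1 to 3 of cKO above all WT libraries with replicate 4 below them was seen in the 7 class II genes. It was seen in 78 of the 14004 tested genes (0.557%). These patterns were picked after the values were seen, and no test is attached to them. The SD of log2(CPM + 0.5) was larger in cKO than in WT for all 10 genes and for 69.8% of tested genes.

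Across the 8 libraries, Pearson's r of log2 CPM with H2-Aa ranged from 0.773 (Ciita) to 0.987 (Cd74 and H2-Ab1) among the other class II genes. It was 0.865 for Cd86, 0.868 for Cd207 and 0.038 for Cd1d1. Among 11620 other genes ranked by that measure, those most like H2-Aa were Spi1 (r = 0.966), which encodes the myeloid transcription factor PU.1, Amz1 (0.953) and Lypla1 (0.952), an acyl-protein thioesterase. Spi1 itself had a log2 fold change of 0.11 ± 0.29 (SE, edgeR adjusted p = 0.878).

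The genes most like Cd207 were Chmp3 (r = 0.985), a subunit of the ESCRT-III membrane-remodelling complex, Prkcb (0.973), protein kinase C beta, and Dcun1d1 (0.970), a neddylation factor. Prkcb stood at 3.72, 10.3, 8.35 and 2.81 CPM in cKO replicates 1 to 4, against 3.83, 3.07, 3.42 and 3.61 CPM in WT replicates 1 to 4. The genes most like Cd1d1 were Lgi2 (r = 0.975), Cbr2 (0.971), a carbonyl reductase, and Sh3bp2 (0.966), a signalling adaptor, and all 3 fell in cKO. Their log2 fold changes were -1.88 ± 0.22 for Lgi2 (SE, edgeR adjusted p = 0.0132), -1.32 ± 0.26 for Cbr2 (0.044) and -0.90 ± 0.11 for Sh3bp2 (0.0151). These r values describe 8 libraries that fall into 2 genotypes, so for Cd1d1 they hold the genotype difference itself. For H2-Aa and Cd207 the cKO libraries spread more widely than the WT libraries, and r was not taken within a genotype.

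Levels between genes were compared per length, on the deposited FPKM scale. In cKO, Cd74 was highest at 107 ± 44.1 FPKM (SD, n = 4), then H2-Ab1 at 71.7 ± 31.4, H2-Aa at 56.4 ± 20.8 and H2-Eb1 at 33.3 ± 12.0 FPKM. In WT the same 4 genes stood at 74.2 ± 9.55, 54.1 ± 7.01, 44.5 ± 6.79 and 24.4 ± 3.04 FPKM. The ranges of neighbours in this order overlapped in cKO, and in WT those of H2-Ab1 and H2-Aa did, but within each of the 8 libraries the order of these 4 genes was the same.

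The other genes were far lower. In cKO, Cd207 (8.27 ± 6.33 FPKM) and H2-DMb1 (5.002 ± 1.80) overlapped each other, as did Cd1d1 (1.64 ± 0.442), H2-DMa (1.31 ± 0.528) and Cd86 (1.16 ± 0.448), and Ciita was lowest (0.367 ± 0.151). In WT, Cd1d1 (4.36 ± 0.579 FPKM) came next, overlapping H2-DMb1 (3.70 ± 0.613), which overlapped Cd207 (3.04 ± 0.851). Below these came Cd86 (0.888 ± 0.295) and H2-DMa (0.821 ± 0.0703), which overlapped, and Ciita (0.243 ± 0.0572). The FPKM values imply a length of 8325 bases for H2-DMa, where the merged exons of GENCODE M21 span 3448, so its place in this order depends on the gene model.

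The class II fold changes depended on single cKO libraries. Without cKO replicate 4 the log2 fold changes of the 7 class II genes lay between 0.54 (H2-Aa) and 0.88 (H2-DMa), and edgeR adjusted p values ran from 0.0618 (Cd74) to 0.193 (Ciita), so none was called. Without cKO replicate 2 they lay between 0.08 (H2-Aa) and 0.35 (H2-DMa). Without WT replicate 2 they lay between 0.22 (H2-Aa) and 0.62 (Ciita).

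**Figure D3:**
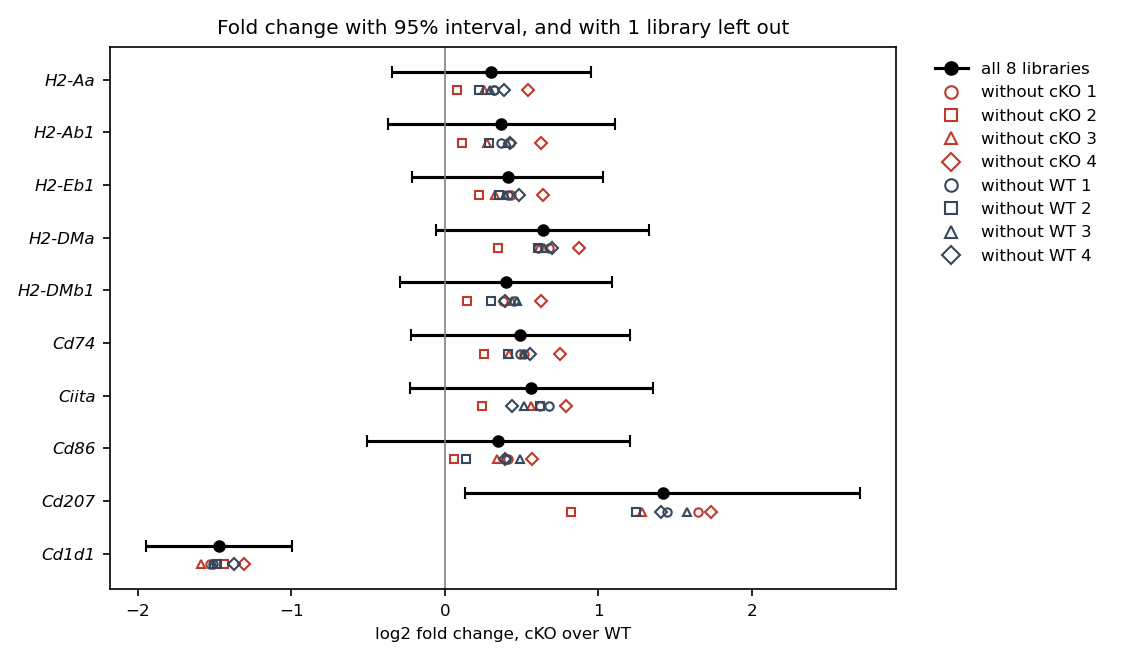
Log2 fold change of each gene (x axis, cKO over WT): black points and bars give the estimate from all 8 libraries with its 95% confidence interval, and open symbols the estimate with 1 cKO (red) or 1 WT (dark) library left out. The bars of the 7 class II genes and Cd86 cross 0, that of Cd207 runs from 0.13 to 2.71, and that of Cd1d1 from -1.95 to -0.999.

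Genes that act around the class II pathway were read from lists of 7 groups. Of the 55 genes tested in these lists, none was called lower and 2 were called higher, Zbtb16 and Ctla4. Over all tested genes 0.671% were called higher and 0.65% lower. Ctla4 passed the filter on low counts only through the cKO libraries, so its call is not read as a result. Of the 7 factors that bind the X and Y boxes (Rfx5, Rfxap, Rfxank, Nfya, Nfyb, Nfyc and Creb1) none was called. They held 2 positive and 5 negative log2 fold changes, with a median of -0.07. The positive ones, named after their values were seen, were Nfyb at 0.52 ± 0.17 (SE, edgeR adjusted p = 0.157) and Rfx5 at 0.18 ± 0.18 (adjusted p = 0.646). Creb1, the factor family of the X2 element, was at -0.12 ± 0.08 (SE, edgeR adjusted p = 0.466), and Nfya, a subunit of the Y box factor NF-Y, at -0.13 ± 0.11 (adjusted p = 0.575). The summed level of the 7 factors was 190.2 to 205 CPM in cKO and 198 to 209.8 CPM in WT. Among the cKO libraries this sum was lowest in replicate 2 and highest in replicate 4.

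None of 6 genes of class II processing and turnover was called (median log2 fold change 0.18). Ctsl, the lysosomal protease cathepsin L, stood at 653, 814, 632 and 465 CPM in cKO replicates 1 to 4 and at 276, 436, 481 and 167 CPM in WT replicates 1 to 4 (0.91 ± 0.31 SE, edgeR adjusted p = 0.162). Ifi30, a lysosomal thiol reductase, was at 0.08 ± 0.15 (adjusted p = 0.836). None of 10 tested genes of the interferon gamma axis, the main inducer of Ciita outside dedicated antigen-presenting cells, was called. The axis held 6 positive and 4 negative log2 fold changes, with a median of 0.01. Ifngr1 (0.006) and Irf1 (0.02) lay near 0, while other genes lay far from 0 in both directions. Named after their values were seen, the chemokine gene Cxcl10 was at 1.44 ± 0.50 (SE, edgeR adjusted p = 0.172) and Cxcl9 at 0.98 ± 0.55 (adjusted p = 0.385), while the kinase gene Jak2 was at -0.69 ± 0.15 (adjusted p = 0.0552) and Socs1, an inhibitor of JAK signalling, at -1.74 ± 0.42 (adjusted p = 0.0726). Jak1, a receptor kinase, was at -0.26 ± 0.08 (adjusted p = 0.135) and the receptor chain gene Ifngr2 at 0.03 ± 0.11 (adjusted p = 0.922). Ifng itself had 0 or 1 count per library and was not tested.

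In the costimulation and maturation list 8 genes were tested, and the 1 that was called was Ctla4, the T cell receptor that competes for CD86. Its counts were 70, 36, 29 and 22 in cKO replicates 1 to 4 and 2, 2, 0 and 1 in WT replicates 1 to 4. Ctla4 passed the filter on low counts only through the cKO libraries, so its values are given as a description, with no test. The 8 genes, Ctla4 among them, held 5 positive and 3 negative log2 fold changes, with a median of 0.52. Fscn1, an actin bundler of mature dendritic cells that keratinocytes share, was at a log2 fold change of -0.88 ± 0.32 (SE, edgeR adjusted p = 0.188). Icosl, a costimulatory ligand, was at -1.01 ± 0.27 (adjusted p = 0.0905). Named after their values were seen, Cd83 was at 1.06 ± 0.49 (adjusted p = 0.285) and Cd40 at 0.60 ± 0.62 (adjusted p = 0.65).

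None of 14 genes of Langerhans cell survival and homing was called. The list held 7 positive and 7 negative log2 fold changes, with a median of 0.01 and some values far from 0 in both directions. Cdh1, the E-cadherin that holds Langerhans cells to keratinocytes, was at -0.24 ± 0.09 (SE, edgeR adjusted p = 0.216) and the TGF-beta receptor gene Tgfbr2 at -0.29 ± 0.13 (adjusted p = 0.276). Il34, the keratinocyte cytokine that maintains Langerhans cells, is named after its value was seen, at 0.11 ± 0.24 (adjusted p = 0.859). Also named after their values were seen, Csf1 was at -0.90 ± 0.19 (adjusted p = 0.053) and Acvrl1 at -1.67 ± 0.45 (adjusted p = 0.0926). In the other direction, Ccl20 was at 2.02 ± 0.79 (adjusted p = 0.214) and Ccr6 at 0.99 ± 0.60 (adjusted p = 0.413).

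**Figure D4:**
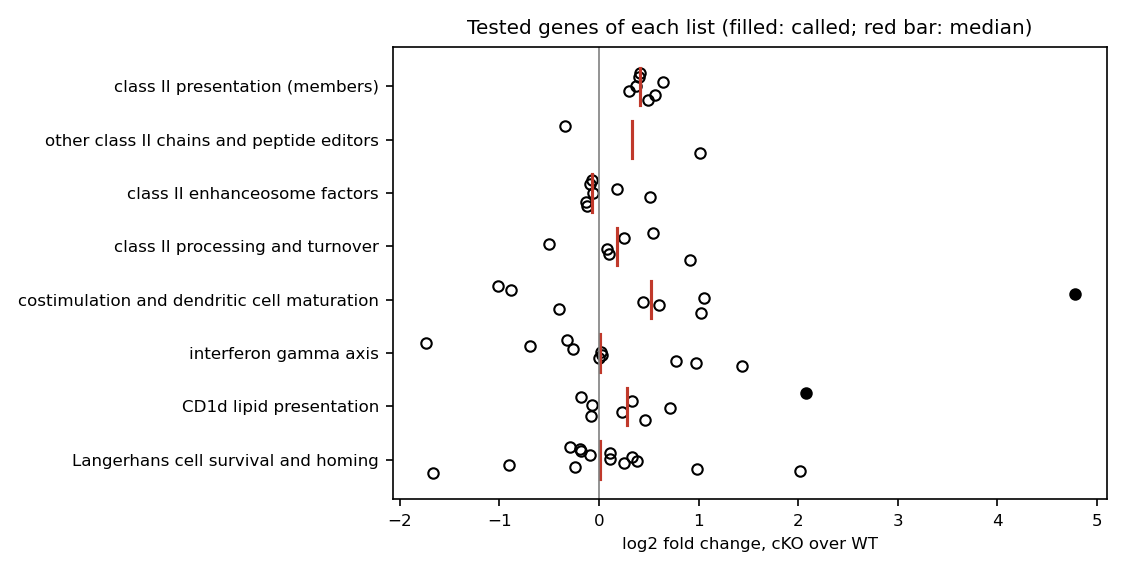
Log2 fold change (x axis, cKO over WT) of the tested genes of the class II group and of the 7 pathway lists, 1 point per gene, filled where called, with a red bar at the median of each list. The 7 class II genes lie between 0.30 and 0.64, and the 2 filled points are Zbtb16 at 2.08 and Ctla4, which passed the filter on low counts only through the cKO libraries.

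Markers of the cells that could carry these transcripts were read beside the results. Of 11 Langerhans cell markers, all tested, none was called (median log2 fold change 0.25). Their summed level ran from 1191 to 1939 CPM in cKO and from 1518 to 1783 CPM in WT. Cd24a, which keratinocytes also express, was the most abundant of them, at -0.53 ± 0.14 (SE, edgeR adjusted p = 0.0904). Among the cKO libraries 8 of the 11 were highest in replicate 2 and 9 were lowest in replicate 4. Of these, Mfge8 is named after its values were seen. It encodes a bridging protein for apoptotic cells and stood at 85.7, 168, 90.8 and 42.6 CPM in cKO replicates 1 to 4 and 58.4, 49.9, 55.6 and 47.1 CPM in WT.

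Other antigen-presenting cells left low signals. Of 12 conventional dendritic cell markers 6 passed the count filter and none was called, and Clec9a and Xcr1, which define the cross-presenting subset, had at most 1 and 6 counts in any library. The 6 tested genes held 4 positive log2 fold changes, Mgl2 among them, and 2 negative ones. The negative ones were the most abundant and made up most of the list's sum. Itgae was at -0.68 ± 0.68 (SE, edgeR adjusted p = 0.642) and Ccr2 at -0.89 ± 0.57 (adjusted p = 0.437), and the list summed to 9.73 to 28.1 CPM in cKO and 9.48 to 61.9 CPM in WT. Mgl2, a lectin gene named after its values were seen, had 14, 17, 26 and 32 counts in cKO and 5, 7, 8 and 8 counts in WT. It passed the filter on low counts only through the cKO libraries, so its values are a description only. Of 12 macrophage and monocyte markers 10 were tested and none called, with Csf1r, the receptor for IL-34 and CSF1, at 0.25 ± 0.35 (SE, edgeR adjusted p = 0.757) and C1qb at -0.21 ± 0.48 (adjusted p = 0.864), and sums of 31.0 to 67.6 CPM in cKO and 44.5 to 55.1 CPM in WT. Of these 10, 8 had negative log2 fold changes, with a median of -0.14, and Cd14, a lipopolysaccharide coreceptor named after its value was seen, was at -1.15 ± 0.30 (adjusted p = 0.0874). The B cell genes Cd79a and Pax5 had at most 1 count in any library, and the 4 B cell markers in the table summed to 0.832 to 1.38 CPM in cKO and 0.990 to 1.42 CPM in WT.

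T cell markers summed to 7.42 to 21.4 CPM in cKO and 7.02 to 39.8 CPM in WT, and fibroblast markers to 1.09 to 3.75 CPM in cKO and 1.15 to 9.92 CPM in WT. None of their tested genes was called, with Cd3g at -0.63 ± 0.59 (SE, edgeR adjusted p = 0.612), Cd3e at -0.22 ± 0.49 (0.858), Col3a1 at -1.48 ± 0.83 (0.377) and Col1a1 at -1.11 ± 0.93 (0.561). The coreceptor genes of the T cell list, named after their values were seen, went the other way at low counts. Cd4, which passed the filter only through the cKO libraries, had 31, 26, 20 and 24 counts in cKO and 7, 0, 4 and 2 counts in WT. Cd8a, which did not pass the filter, had 27, 18, 9 and 9 counts in cKO and 4, 2, 3 and 2 counts in WT. The cKO library with the lowest class II level, replicate 4, also had the lowest sum of dendritic cell, macrophage and T cell markers among the cKO libraries. Its keratinocyte sum was the lowest of all 8 (61567 CPM), but only 3 of the 8 keratinocyte markers were lowest there. Dsg3 (247 CPM) and Itgb4 (140 CPM) were higher in it than in any other cKO library. Replicate 2 of cKO, the highest for class II, was highest in none of these 3 leukocyte lists. In the Langerhans cell marker sum it was highest of the 8 libraries (1939 CPM), and cKO replicate 4 was lowest (1191 CPM). WT replicate 2 had class II at 82.6% of the WT mean. Its dendritic cell (9.48 CPM) and T cell (7.02 CPM) sums were lower than those of cKO replicate 4. Itgae and Ccr2 made up most of the dendritic cell sum. Itgae ranked the libraries of each genotype in the same order as Cd3g of the T cell list, so these sums are not separate readings. The pan-leukocyte gene Ptprc stood at 12.0, 10.1, 12.3 and 5.54 CPM in cKO replicates 1 to 4 and at 9.18, 5.89, 12.8 and 15.1 CPM in WT replicates 1 to 4. The part of these cell markers in the class II and Cd207 values was not tested.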

How the data were processed

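The submitters' processing notes name HISAT2 and HTSeq. The sources used here do not give versions, genome build, annotation or strand setting. The authors deposited 2 tables for the 8 libraries, one of whole-number read counts and one of FPKM values for each gene symbol. The deposited counts were passed through filterByExpr, scaled with TMM factors and compared between genotypes by the quasi-likelihood test of edgeR 4.0.16 in R 4.3.3, with no other term and with Benjamini-Hochberg adjustment over 14004 genes. The SE of a fold change is the one implied by the F statistic. The deposited FPKM values served for levels per length and for alternatives with limma 3.58.1. DESeq2 1.42.0 was an alternative. The exact permutation tests covered all 70 splits of 4 against 4 log2 CPM values. Genes were named by a rule: all 10 genes, Hnrnpu, every called gene of a list and its 2 most abundant genes not called, and the 3 genes most like each of H2-Aa, Cd207 and Cd1d1 among genes averaging 1 CPM or more. Some genes that the rule names are not reported here. Genes, lists and rules were chosen with earlier results of these data known. Precision rests on counts of 48 to 7982 per gene and library.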

Additional observations from a re-analysis of the deposited data

How the results depend on the processing

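Among the 10 genes, no fold change turned its sign in any of the alternatives run, and none but Cd1d1 was called in any. Cd1d1 was the 1 gene called with DESeq2, limma-voom, RLE factors, library-size scaling, no count filter, a 1 CPM minimum in 4 libraries and limma on log2(FPKM + 1) and log2(FPKM + 0.1). It was not called on log2(FPKM + 1) with no filter (-1.03, adjusted p = 0.0599), which left 0 of the 10 called, and more genes were tested there. With 1 library left out, between 0 and 1 of the 10 were called, and the log2 fold change of Cd1d1 ran from -1.59 to -1.31. The median over the 10 genes ran from 0.18 to 0.64 with 1 library left out and from 0.30 to 0.44 otherwise. Ciita could not be fitted on FPKM with the filter, which it did not pass.

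Over all genes 185 were called, but 1294 with DESeq2, 349 with no count filter, 19 on log2(FPKM + 1) with no filter, and 8 to 506 with 1 library left out. The cause was not tested. Same-numbered libraries correlated in their deviations from the genotype means by -0.088 to 0.182, and cKO replicate 1 correlated best with WT replicate 4 (0.176), so the numbers were not taken to pair the mice. With the replicate number as a block 216 genes were called and Cd1d1 was at -1.50 (adjusted p = 0.0463). Counts were lowest for Cd86, at 48 to 185 per library, and Ciita, at 67 to 208.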

Other observations

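Some values of the class II group were noticed after the data had been seen, and no test is attached to them. Cd74 per H2-Ab1, as a ratio of FPKM, was 1.62, 1.46, 1.44 and 1.51 in cKO replicates 1 to 4 and 1.39, 1.38, 1.33 and 1.39 in WT replicates 1 to 4. The genotypes did not overlap in this ratio, although neither gene was called. In H2-Aa per H2-Ab1 they did overlap, at 0.728 to 0.906 in cKO and 0.751 to 0.864 in WT. H2-Oa and H2-Ob, the alpha and beta chains of H2-DO, which restrains H2-DM, had at most 16 and 19 counts in any library. Lgmn, the asparaginyl endopeptidase that starts invariant chain cleavage, had 22.5, 19.4, 22.6 and 19.1 CPM in cKO replicates 1 to 4. In WT replicates 1 to 4 it had 31.5, 30.9, 28.3 and 27.6 CPM, with no overlap between the genotypes. Such a separation, lower in cKO, was seen in 5.82% of tested genes. Lgmn was not called, at a log2 fold change of -0.50 ± 0.10 (SE, edgeR adjusted p = 0.051).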
